A study of Mus musculus with 4 samples.

Results

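The 8 transcripts described here are noncoding hosts of small nucleolar RNAs (snoRNAs): Gas5, Snhg1, Snhg3, Snhg5, Snhg6, Snhg8, Snhg12 and Zfas1. They were chosen by gene symbol from a ribosome profiling table of 25170 genes, all 8 were found, and RefSeq types each of them as a lncRNA. The table covers E14, a wild-type mouse embryonic stem cell line labelled as inner cell mass tissue, grown in serum with leukemia inhibitory factor. 2 libraries came from cells given 1 µM PD for 3 passages and 2 from cells given the solvent DMSO for as long. The labels name the compound only as PD and do not say whether replicates were grown separately. The p-values therefore rest on the spread between 4 libraries, and that spread may be technical. The study addresses how the kinase Mek acts on gene expression after transcription.

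snoRNAs are short nuclear RNAs that guide chemical modification of ribosomal and spliceosomal RNA: box C/D snoRNAs guide ribose methylation and box H/ACA snoRNAs guide pseudouridylation. In mammals most of them are cut from introns of a host transcript, and in some hosts the spliced exons code for no known long protein. In mammalian cells such spliced hosts are known to begin with a pyrimidine-rich tract, the terminal oligopyrimidine (TOP) tract also found on ribosomal protein mRNAs, to meet ribosomes in the cytoplasm, and to be removed by nonsense-mediated decay. Gas5 was first isolated as a transcript that accumulates in growth-arrested mouse fibroblasts.

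The sequences around the RefSeq start sites are shown because the start of the transcript is where TOP tracts lie. RefSeq promoter entries (GRCm38.p6) were found for 7 of the 8 genes, 8 entries in all, with a pair of start sites for Gas5. Each line runs from 40 bases before the start to 30 bases into the transcript. Capitals mark TATA between 40 and 16 bases upstream, and runs of at least 6 bases that are each C or T between 10 bases upstream and base 20 of the transcript.
Gas5, downstream start, chr1:161035126-161035195, plus strand: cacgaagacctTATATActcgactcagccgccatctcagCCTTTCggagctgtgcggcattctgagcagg
Gas5, upstream start, chr1:161034561-161034630, plus strand: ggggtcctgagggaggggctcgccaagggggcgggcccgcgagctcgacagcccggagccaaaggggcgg
Snhg1, chr19:8723447-8723516, plus strand: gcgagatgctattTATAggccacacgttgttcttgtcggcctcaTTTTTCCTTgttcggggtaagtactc
Snhg5, chr9:88522868-88522937, minus strand: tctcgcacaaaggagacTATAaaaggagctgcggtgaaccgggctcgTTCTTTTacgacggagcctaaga
Zfas1, chr2:167062894-167062963, plus strand: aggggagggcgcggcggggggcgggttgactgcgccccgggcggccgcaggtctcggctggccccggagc
Snhg3, chr4:132353657-132353726, minus strand: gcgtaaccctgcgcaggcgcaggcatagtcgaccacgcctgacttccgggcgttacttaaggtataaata
Snhg8, chr3:123508307-123508376, minus strand: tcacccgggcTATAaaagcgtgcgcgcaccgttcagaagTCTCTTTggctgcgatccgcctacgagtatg
Snhg12, chr4:132308638-132308707, plus strand: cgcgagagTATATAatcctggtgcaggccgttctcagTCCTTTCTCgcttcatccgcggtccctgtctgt

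TATA, which reads the same on both strands, stood in its window in 5 of the 8 entries, against 5.91% of 32851 promoter entries of the same length. The pyrimidine run, searched on the transcript strand, stood in the same 5 entries, against 28.7% of all entries. Both features together were present in these 5 entries and in 1.92% of all. The 5 were Gas5 at its downstream start, Snhg1, Snhg5, Snhg8 and Snhg12. The Snhg3 entry has the letters tata inside the transcript, past the searched window, and Zfas1 has neither feature at its RefSeq start. The windows were set after these sequences had been read, so the counts describe the entries, and the letters alone say nothing of which factor binds there.

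The deposited unit is FPKM, a fragment count divided by transcript length and library size, given with a lower and an upper bound of unstated confidence level. The depth of a library is not stated, but most genes' values turned out to be whole numbers of a common per-read step, from which relative depth and reads were recovered. Relative to DMSO replicate 1, this gave a depth of 0.464 for PD replicate 1, 0.201 for PD replicate 2 and 1.42 for DMSO replicate 2, so depth went with treatment. Whole reads were recovered for 6 of the 8 hosts, and not for Gas5 or Zfas1. These 6 had 33 to 183 reads in PD replicate 1, 22 to 101 in PD replicate 2, 113 to 497 in DMSO replicate 1 and 76 to 356 in DMSO replicate 2. All 10 pluripotent cell markers had at least 5 FPKM in every library. Of 10 feeder and fibroblast markers, 2 reached 5 FPKM, and S100a4, Lum and Postn were at 0 in every library. The summed level of the 10 was 269 to 288 FPKM in PD and 135 to 193 FPKM in DMSO, most of it Vim and Fn1. Vim was higher in both PD libraries (207 and 185 FPKM, against 105 and 29.7 FPKM in DMSO). Fn1 was lower in both (79.3 and 80.1 FPKM, against 86.3 and 103 FPKM in DMSO). The part of this summed level in the results was not tested.

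The hosts ranked among the highest tested lncRNA genes in these libraries. By mean FPKM over the 4 libraries they took places 2 to 21 among 155 tested lncRNA genes, with Gas5 second. Together they made up 33.7% and 31.3% of the summed lncRNA FPKM in the PD libraries, against 27.9% and 24.9% in the DMSO libraries. Their own summed FPKM overlapped between the groups, at 1297 and 1498 in PD and 1440 and 958 in DMSO. Zfas1, with both PD values above both DMSO values, is part of these shares, and the shares were not tested. The median of the hosts was 129 and 140.0 FPKM in the PD libraries and 141 and 89.0 FPKM in the DMSO libraries. The median tested lncRNA had 3.59 and 4.01 FPKM in PD and 3.45 and 2.93 FPKM in DMSO. Since the 8 were chosen with earlier results known, these places and shares do not describe noncoding snoRNA hosts as a class. Of 16 other noncoding snoRNA hosts, 11 reached the minimum mean of 1 FPKM. Among these 11, Epb41l4aos had a mean of 257 FPKM and Snhg4 had 2.96 to 8.34 FPKM. The table holds no read lengths or positions, so whether the fragments of the 8 hosts came from ribosomes was not tested.

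**Figure D1:**
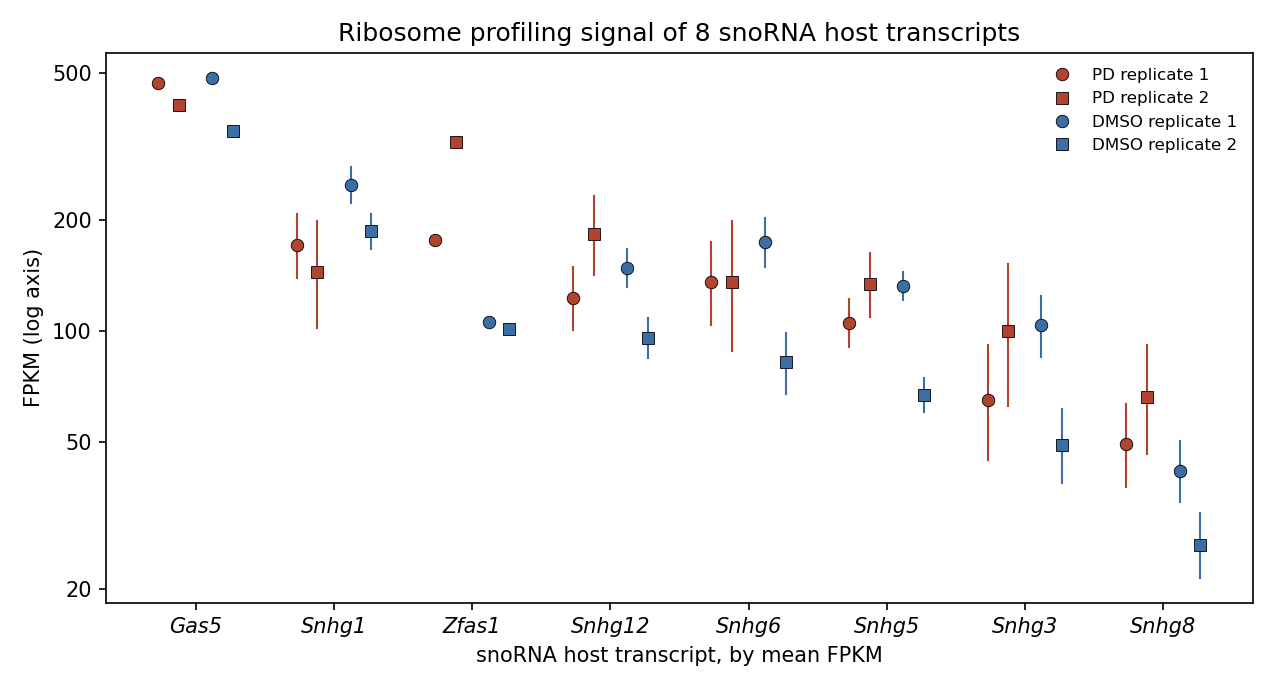
FPKM on a log axis (vertical) of the 8 snoRNA host transcripts (horizontal, by falling mean), with PD libraries in red on the left and DMSO libraries in blue on the right. Circles are replicate 1 and squares replicate 2; bars are 95% Poisson intervals of the recovered reads, absent for Gas5 and Zfas1. DMSO replicate 2 is the lowest library for every host except Snhg1, and only Zfas1, Snhg8 and Snhg1 have groups that do not overlap.

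No host passed the test between PD and DMSO. limma on log2(FPKM + 1) over 9741 genes called 0 of the 8 at an adjusted p under 0.05, where 0.257% of all tested genes were called (0.0308% higher and 0.226% lower in PD). An unadjusted p under 0.05 was reached by 1 of the 8 and by 561 of all tested genes. The 2 PD libraries lay above both DMSO libraries for Zfas1 and Snhg8, which is 2 of 8 against 17.5% of all tested genes. They lay below both for Snhg1, which is 1 of 8 against 18.3%. The other 5 overlapped. With 8 genes, these counts are near the background shares. The median log2 difference (PD minus DMSO) was 0.25 over the hosts and -0.02 over all tested genes. It was -0.15 over the hosts without DMSO replicate 2 and 0.71 without DMSO replicate 1. In a bulk lysate a lower value from fewer cells and one from less RNA per cell cannot be told apart. The values here may follow the amount of RNA as well as its ribosome load, and these were not separated.

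Among the hosts of box C/D snoRNAs, Gas5 had the most signal. Gas5 (mm10, chromosome 1, 161034916 to 161038539) hosts several C/D snoRNAs, and RefSeq places 8 snoRNA genes inside it. It had 470.3 and 409 FPKM in the PD libraries and 485 and 349 FPKM in the DMSO libraries. Both PD values lay between the DMSO values. The means were 439.8 ± 43.2 FPKM in PD and 417 ± 95.8 FPKM in DMSO (SD, n = 2 each), with a log2 difference of 0.09, an SE of 0.30 and a limma adjusted p of 0.968. Gas5 overlaps the span of the protein-coding gene Zbtb37 in RefSeq, and the sources used here do not say whether counting used strand, so reads of such pairs cannot be told apart.

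Snhg1 was the only host with a negative difference. It is the host of Snord22, with 8 annotated snoRNAs (chromosome 19, 8723487 to 8726326). It had 171 and 144 FPKM in the PD libraries, from 101 and 37 reads, and 248 and 186 FPKM in the DMSO libraries, from 316 and 336 reads. Both PD libraries were below both DMSO libraries, and the interval that counting error allows for PD replicate 2, 102 to 199 FPKM, still reached DMSO replicate 2. Its log2 difference of -0.45 (SE 0.29, 95% interval -1.22 to 0.32) did not pass (limma adjusted p = 0.837). It stayed negative in each of the 14 other settings tried, at -0.66 to -0.24, and passed in none.

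Zfas1 had the largest difference of the 8. It is transcribed antisense to the start of Znfx1, a helicase-like gene, and hosts the Snord12 family. Its values were 176 and 326 FPKM in the PD libraries, against 106 and 101 FPKM in the DMSO libraries. The groups did not overlap, but the PD libraries differed from each other by a log2 value of -0.88 (PD replicate 1 minus PD replicate 2) while the DMSO libraries differed by 0.06. PD averaged 251 ± 106 FPKM and DMSO 104 ± 3.12 FPKM (SD, n = 2 each), a ratio of means of 2.42. The log2 difference of 1.20 (SE 0.38, 95% interval 0.18 to 2.23) had an unadjusted limma p of 0.0306 and an adjusted p of 0.816. It lay above the differences of 96.9% of tested genes, at 1.64 without PD replicate 1 and 0.76 without PD replicate 2.

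The deposited table gives Zfas1, Znfx1 and Snord12 the same locus (chromosome 2, 167035796 to 167065862). Znfx1 itself had 3.19 and 3.26 FPKM in the PD libraries and 0.678 and 1.22 FPKM in the DMSO libraries. The PD values of Znfx1 were again above both DMSO values, with a log2 difference of 1.13 (SE 0.34, limma adjusted p = 0.806). Whether reads of one gene were counted for the other was not tested.

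Snhg5 and Snhg6 overlapped between the groups. Snhg5 (chromosome 9, 88521053 to 88522897), with 2 annotated snoRNAs, had 105 and 134 FPKM in the PD libraries and 133 and 67.1 FPKM in the DMSO libraries, from 183, 101, 497 and 356 reads. The higher PD value was nearly equal to the higher DMSO value, the lower one lay between the DMSO values, and the log2 difference was 0.33 (SE 0.42, limma adjusted p = 0.905). Snhg6 (chromosome 1, 9942025 to 9944118), the host of Snord87, had 135.8 and 135.5 FPKM in the PD libraries, from 60 and 26 reads, and 174 and 82.2 FPKM in the DMSO libraries, from 166 and 111 reads. The PD libraries of Snhg6 were nearly equal and sat in the middle of DMSO values that differed by a factor of 2.12. Its log2 difference was 0.18 (SE 0.43, limma adjusted p = 0.955).

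Of the hosts of box H/ACA snoRNAs, Snhg8 was higher in both PD libraries and Snhg3 was not. Snhg8 (chromosome 3, 123507552 to 123508336), which carries Snora24, had 49.5 and 66.2 FPKM in the PD libraries, from 62 and 36 reads, and 41.8 and 26.4 FPKM in the DMSO libraries, from 113 and 101 reads. The lower PD value and the higher DMSO value lay within each other's counting intervals, which were 37.9 to 63.4 FPKM in PD replicate 1 and 34.5 to 50.3 FPKM in DMSO replicate 1. PD averaged 57.8 ± 11.8 FPKM and DMSO 34.1 ± 10.9 FPKM (SD, n = 2 each), with a log2 difference of 0.77 (SE 0.35, 95% interval -0.17 to 1.70, limma adjusted p = 0.837). Leaving out each DMSO library moved this difference to 1.09 and 0.44, and it passed in neither case.

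Snhg3 (chromosome 4, 132351933 to 132353686), the host of Snora73a and Snora73b, had 65.2 and 100.1 FPKM in the PD libraries and 104 and 49.2 FPKM in the DMSO libraries. The reads behind them were 33 and 22 in PD and 113 and 76 in DMSO. The groups overlapped throughout, and the log2 difference of 0.18 was smaller than its SE of 0.47 (limma adjusted p = 0.961). Snhg12 (chromosome 4, 132308678 to 132311024) holds snoRNAs of both classes: Snora16a, Snora44, Snora61 and Snord99. It had 123 and 183 FPKM in the PD libraries, from 107 and 69 reads, and 148 and 95.7 FPKM in the DMSO libraries, from 278 and 254 reads. Each DMSO value of Snhg12 was below the higher PD value, and the lower PD value lay between them, with a log2 difference of 0.33 (SE 0.37, limma adjusted p = 0.891). The Snhg12 difference was 0.61 without PD replicate 1, 0.047 without PD replicate 2, 0.64 without DMSO replicate 1 and 0.016 without DMSO replicate 2.

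**Figure D2:**
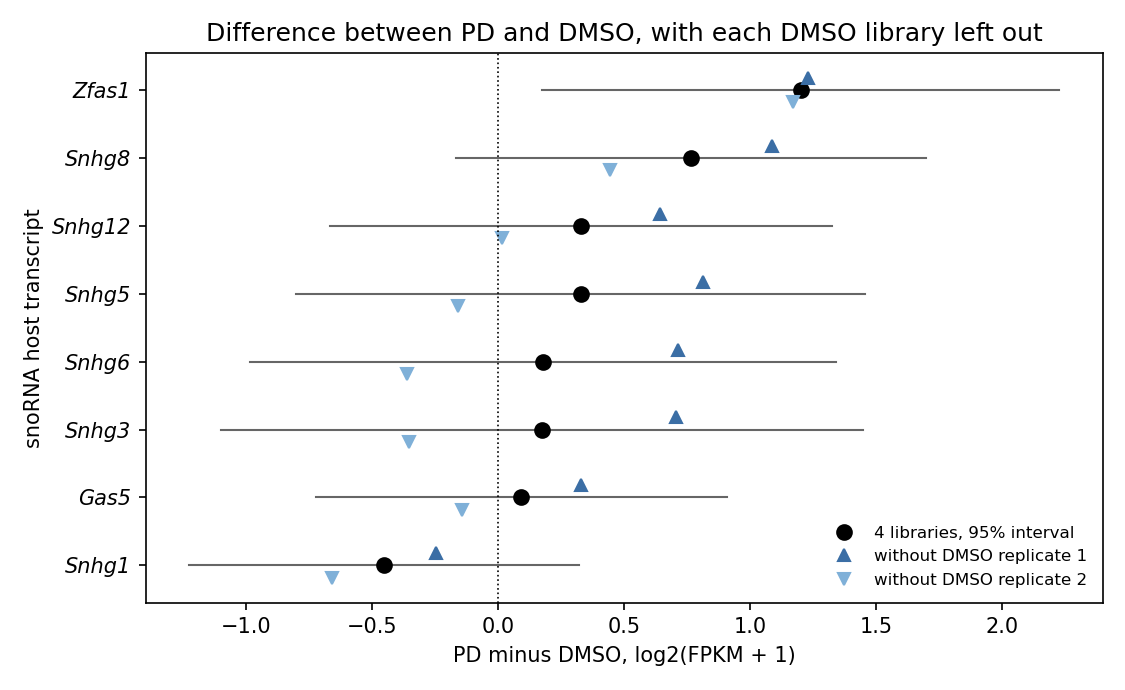
log2(FPKM + 1) difference of PD minus DMSO (horizontal) for each host (vertical). Black points are the limma estimate from 4 libraries with its 95% interval; triangles give the estimate without DMSO replicate 1 (up) and without DMSO replicate 2 (down). Without DMSO replicate 2 the estimates of Gas5, Snhg3, Snhg5 and Snhg6 lie below 0, and without DMSO replicate 1 those of all hosts except Snhg1 lie above 0.

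The DMSO libraries differed in the same direction for every host. DMSO replicate 1 was above DMSO replicate 2 for all 8 hosts, against 50.6% of tested genes, and DMSO replicate 2 was the lowest of the 4 libraries for 7 of 8, against 20.3%. The median log2 difference between these replicates was 0.64 over the hosts, 0.11 over 155 tested lncRNA genes and 0.01 over all tested genes. Other lists also lay above 0, at 0.45 for snoRNP genes (12 of 13 higher in DMSO replicate 1), 0.51 for lncRNAs without snoRNAs (3 of 4) and 0.35 for pluripotent markers (8 of 10). Nonsense-mediated decay genes lay at 0.18 (11 of 15), and feeder and fibroblast markers lay below 0, at -0.23 (1 of 3). Snhg6, Snhg3 and Snhg5 stood furthest apart, with ratios of DMSO replicate 1 to DMSO replicate 2 of 2.12, 2.11 and 1.98, and Zfas1 was closest at 1.044. For 5 of the 8 hosts the DMSO replicates differed by more than PD did from DMSO, as they did for 54.4% of all tested genes.

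The 95% Poisson intervals of the DMSO replicates were apart for all 6 hosts with recovered reads, and those of the PD replicates for 0. The PD intervals rest on fewer reads and are wider. For Snhg5, the host with the most recovered reads, the 95% Poisson interval was 121 to 145 FPKM in DMSO replicate 1 and 60.3 to 74.5 FPKM in DMSO replicate 2. In the PD libraries, replicate 2 was higher than replicate 1 for 5 of 8 hosts, with a median log2 difference of -0.38 (PD replicate 1 minus PD replicate 2) against 0.00 over all tested genes. The deposited bounds overlap for every pair of a PD and a DMSO library in each of the 8 hosts. They lie 43.3% to 69.8% from the value for 7 hosts and 103% to 143% above it for Snhg6, whose lower bound is 0 in all libraries.

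**Figure D3:**
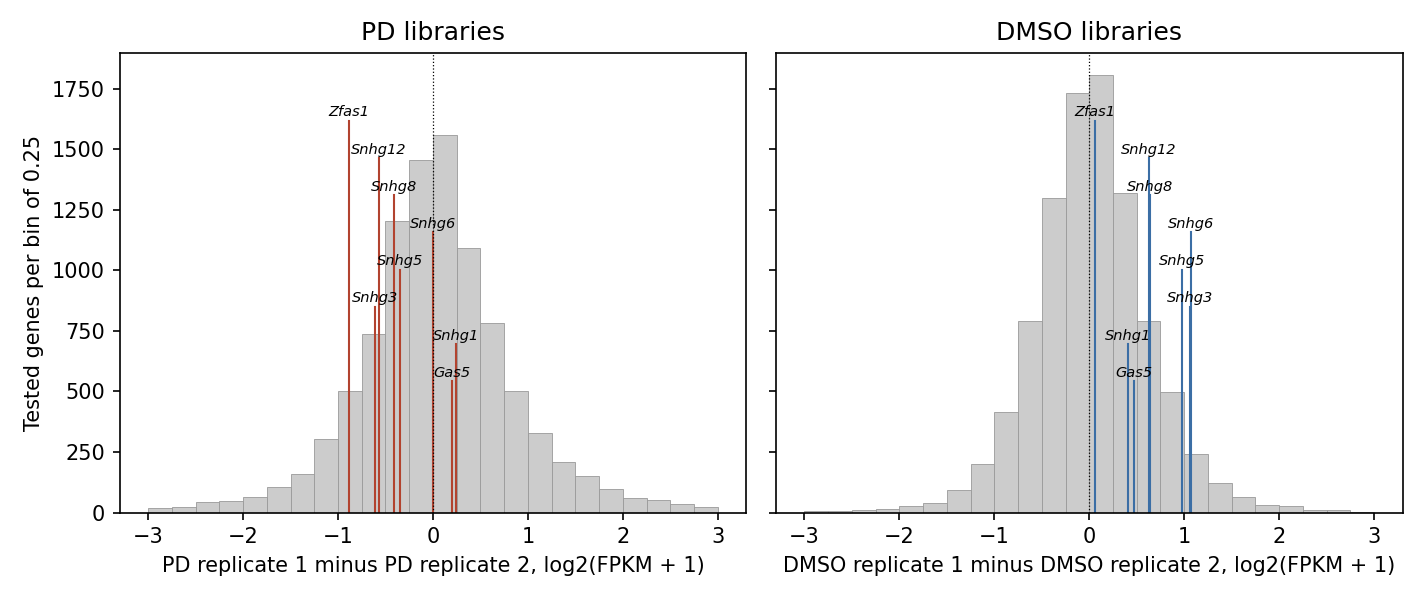
Number of tested genes (vertical) by the log2(FPKM + 1) difference between replicates (horizontal) for the PD libraries, left, and the DMSO libraries, right, with a line for each host. All 8 hosts lie above 0 in the DMSO panel, 5 of 8 lie below 0 in the PD panel, and line heights are staggered only to separate the names.

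On the per-length FPKM scale, the order of the hosts by mean level was Gas5, Snhg1, Zfas1, Snhg12, Snhg6, Snhg5, Snhg3 and Snhg8. Gas5 was above Snhg1 in 4 of 4 libraries, by 0.90 to 1.50 log2 units. Snhg1 and Zfas1 changed places, with Snhg1 higher in 2 of 4 libraries, and Snhg12 was above Snhg6 in 2 of 4. Snhg6 was above Snhg5 in 4 of 4 libraries, but by as little as 0.02 log2 units, so their order is within the spread. Snhg5 was above Snhg3, and Snhg3 above Snhg8, in 4 of 4 libraries.

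Most of the snoRNAs measured inside these hosts overlapped between PD and DMSO. RefSeq annotates 29 snoRNA genes within the 8 host spans, and the deposited table has rows for 9 of them in 6 hosts. Both PD libraries were above both DMSO libraries for 2 rows, below for 0, and overlapping for 7, against 35.8% of all tested genes without overlap in either direction. The levels of these rows are not set against those of their hosts, and where the reads on them came from was not tested.

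Snora44, one of 4 rows in Snhg12, had the largest such difference, with 2471 and 1532 FPKM in the PD libraries, from 26 and 7 reads, and 220.4 and 373 FPKM in the DMSO libraries, from 5 and 12 reads. The PD values lay above both DMSO values, with a log2 difference of 2.76 (SE 0.43), and did not pass (limma adjusted p = 0.477). Its neighbour Snora16a in the same host had 3184 and 4321 FPKM in the PD libraries and 4298 and 4468 FPKM in the DMSO libraries, from 56, 33, 163 and 240 reads. Snord87, the row in Snhg6, had 161584 and 179892 FPKM in PD and 127107 and 133870 FPKM in DMSO, a log2 difference of 0.39 (SE 0.55, limma adjusted p = 0.917). The remaining host rows overlapped. Snord99, the row with the highest mean in Snhg12, had 11647 and 42916 FPKM in PD, from 10 and 16 reads, and 15665 and 31270 FPKM in DMSO, from 29 and 82 reads. Snora61 in the same host had 7 reads in PD replicate 1, 0 in PD replicate 2, and 11 and 4 in DMSO. Snord12 in Zfas1 had 92851 and 62178 FPKM in PD and 99563 and 90987 FPKM in DMSO, with a log2 difference of -0.32 (SE 0.54, limma adjusted p = 0.931). Snord22 in Snhg1 rested on 13 and 1 reads in PD and on 19 and 14 in DMSO. Snord47 in Gas5 had 5 reads or fewer in any library, and Snora24 in Snhg8 had at most 0.0922 FPKM.

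**Figure D4:**
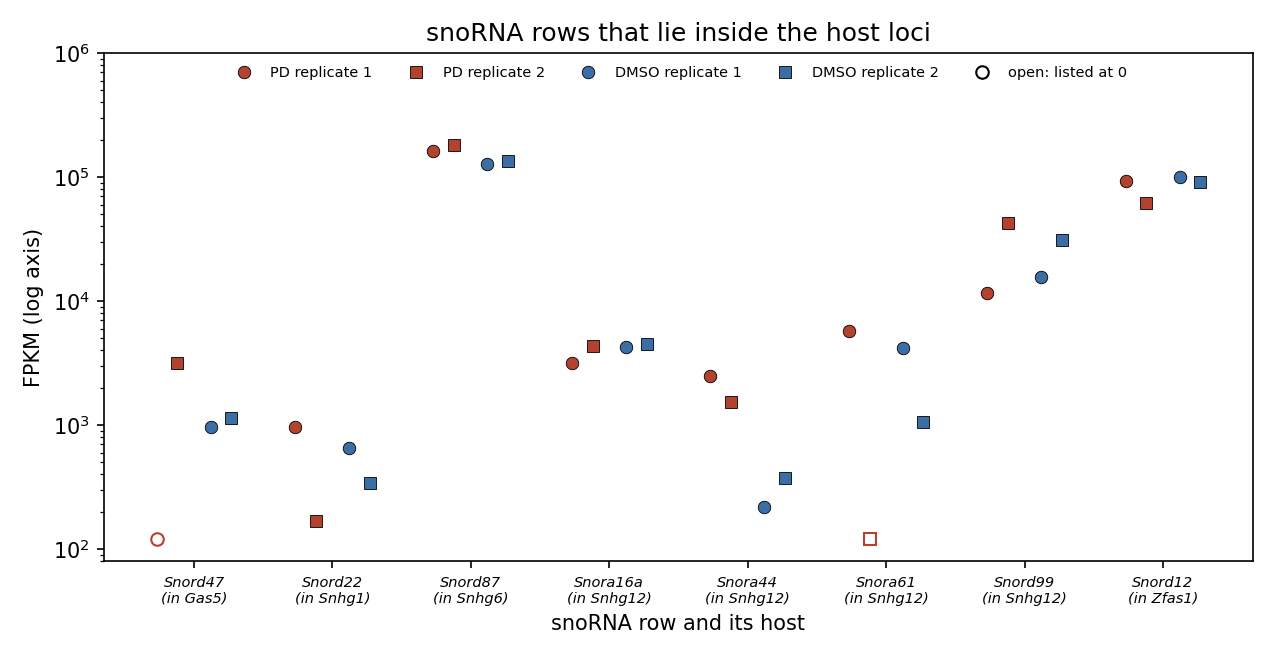
FPKM on a log axis (vertical) of 8 snoRNA rows inside the host loci (horizontal, with the host in brackets), PD libraries in red on the left and DMSO libraries in blue on the right. Open symbols at the bottom are values listed at 0, and Snora24, at or near 0 in every library, is not drawn. Snora44 and Snord87 are the rows whose PD libraries lie above both DMSO libraries.

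Other noncoding snoRNA hosts did not pass either. Of 16 in the table, 11 were tested, 0 passed in either direction (limma, with 1 at an unadjusted p under 0.05), and their median log2 difference was -0.22. Among the 11 tested, Snhg4 was the only one whose groups did not overlap, where 35.8% of all tested genes did not. Snhg4 had 8.34 and 7.91 FPKM in PD and 2.96 and 4.34 FPKM in DMSO, a log2 difference of 0.99 (SE 0.29, limma adjusted p = 0.803). Snhg9 was listed at 0 in PD replicate 1 and had 190.4 FPKM in PD replicate 2, against 173 and 20.3 FPKM in DMSO. Snhg20 had 24.5 FPKM in PD replicate 1, was listed at 0 in PD replicate 2, and had 22.8 and 11.9 FPKM in DMSO. Snhg7 had 33.6 and 1.98 FPKM in PD and 24.0 and 12.4 FPKM in DMSO. These hosts also had DMSO replicate 1 above DMSO replicate 2, for 9 of 11, with a median log2 difference of 0.62 between the DMSO libraries, but DMSO replicate 2 was the lowest library for 2 of 11.

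Hosts that code for proteins had a median log2 difference of 0.11 over 36 tested genes of 44. 0 passed (limma, 1 at an unadjusted p under 0.05), 8 had both PD libraries above and 3 both below. Over all tested genes the shares were 17.5% above and 18.3% below. Rpl39, a protein of the large ribosomal subunit, had 14.01 and 9.22 FPKM in PD and 47.3 and 16.4 FPKM in DMSO. Mouse ribosomal protein genes have near-identical processed copies, and how shared reads were counted is not known here, so such values are uncertain. Tpt1, a growth-related TOP mRNA, had 3.36 and 12.4 FPKM in PD and 1.56 and 3.74 FPKM in DMSO, and Rps13, of the small subunit, was listed at 0 in 1 library of each group. Between the DMSO libraries the median log2 difference of these coding hosts was 0.15.

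Long noncoding RNAs without snoRNAs were mostly too low to test. Only 4 of 18 reached the minimum mean of 1 FPKM, 0 passed (limma, 0 at an unadjusted p under 0.05), and their median log2 difference was -0.28. Lncenc1, a transcript of naive mouse embryonic stem cells, had 14.4 and 15.7 FPKM in PD and 44.1 and 21.3 FPKM in DMSO (log2 difference -0.99, limma adjusted p = 0.837). Malat1, an abundant nuclear RNA, had 20.5 and 32.3 FPKM in PD and 30.7 and 41.9 FPKM in DMSO. Mirg and Tug1 had log2 differences of -0.09 and -0.05.

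Genes for snoRNA-binding proteins and for nonsense-mediated decay factors were also measured. Of 13 tested snoRNP core and assembly genes, 0 passed (limma, 0 at an unadjusted p under 0.05), and the median log2 difference was -0.10. Of the 13, 3 had both PD libraries above and 0 both below, against 17.5% and 18.3% of all tested genes. Ruvbl1, an ATPase of the assembly machinery, had 61.6 and 47.5 FPKM in PD and 37.2 and 20.1 FPKM in DMSO, and Pih1d1, its cofactor, had 29.6 and 29.2 FPKM in PD and 20.2 and 18.3 FPKM in DMSO. Fbl, the methyltransferase of box C/D particles, was listed at 0 in PD replicate 1 and had 3.36 FPKM in PD replicate 2, against 2.93 and 2.39 FPKM in DMSO. Naf1, an assembly factor of box H/ACA particles, had a log2 difference of -0.40. Of 15 nonsense-mediated decay genes, 0 passed (limma, 1 at an unadjusted p under 0.05), with a median of -0.17. Of the 15, 3 had both PD libraries above and 5 both below, against the same 17.5% and 18.3%. Magohb, a core protein of the exon junction complex, had 4.95 and 3.80 FPKM in PD and 19.5 and 11.9 FPKM in DMSO, a log2 difference of -1.61 (SE 0.35, limma adjusted p = 0.717). Upf3a, from the same list, had 5.82 and 6.26 FPKM in PD and 11.7 and 9.28 FPKM in DMSO. Eif4a3 and Smg9 had log2 differences of -0.62 and 0.57.

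The mean profile of the 8 hosts, centred on each gene's own mean, was 0.02 and 0.31 in the PD libraries and 0.17 and -0.50 in the DMSO libraries on the log2 scale. Among 5024 candidate genes outside the hosts, the 5 nearest to it by Euclidean distance over the 4 libraries were Pet100, Clpp, Chst12, Snrpb2 and Trim25, at distances of 0.0894 to 0.133. The hosts themselves lay at 0.193 for Snhg12 and 0.22 for Snhg5, and furthest for Snhg1 at 0.885 and Zfas1 at 1.06. Of the 5024 genes, 19 were nearer to the profile than Snhg12, 35 nearer than Snhg5, 247 to 423 nearer than Snhg3, Snhg6, Gas5 and Snhg8, 2853 nearer than Snhg1 and 3730 nearer than Zfas1.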

How the data were processed

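The authors deposited FPKM with interval bounds, 1 table for 4 libraries, laid out as Cufflinks writes it, per the file headers. Per the labels' protocols, lysates were treated with RNase I, and fragments were isolated on sizing columns, depleted of rRNA and made into small RNA libraries. Per the submitters' processing notes, FastQC, Trimmomatic, Bowtie2, STAR, Cufflinks and mm10 were used; their versions were not stated there. 1 gene of failed status was left out. Gene types came from RefSeq (GRCm38.p6), which matched 25082 symbols; 1 was added to the starts of loci, which then equalled RefSeq starts for 14629 genes.

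Genes averaging 1 FPKM or more were tested on log2(FPKM + 1) with limma 3.58.1 in R 4.3.3 (lmFit, eBayes with trend, group only) and adjusted by Benjamini-Hochberg. Fold changes on this scale understate those of low genes. With 2 libraries against 2, an exact permutation test cannot go below p = 0.333, and none was run. On simulated data of 9741 genes, 0% of 200 genes changed by 1 or 2 log2 units passed and 61.5% of 200 changed by 4.

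Whole reads, within 0.02 reads, were recovered for 69.4% of 10161 genes above 0 in all libraries, against 0.896% with wrong library steps. Where several sets of whole reads were possible, the smallest was taken. Tested on simulated data of 1849 genes, 99.7% were recovered and 92.2% had the true reads. Poisson intervals (95%) cover counting error only, since reads without molecular identifiers are not independent molecules.

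The members and 5 further lists, and the marker lists, were chosen with earlier results of these data known. Named were all hosts, up to 4 genes per list with the largest differences, snoRNA rows inside the hosts, and the 5 genes nearest to the hosts' profile; 1 gene that the rule names is not reported here. Of the marker lists, 0 of 10 pluripotent genes and 0 of 3 tested feeder genes passed limma's test (1 of each at an unadjusted p under 0.05), with median log2 differences of -0.04 and 0.36. Rows beyond 1 per host were named after their values were seen. Alternatives were other pseudocounts, filters, scalings and variance settings, a replicate block, each library left out, voom on recovered reads and, chosen after the data were seen, a test without small RNA genes.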

Additional observations from a re-analysis of the deposited data

How the results depend on the processing

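In 14 alternative settings 0 of the hosts passed (limma, 0 to 2 at an unadjusted p under 0.05), and 103 of 110 values for single hosts kept their direction. Voom on recovered reads covered 6 of the 8 hosts, with Gas5 and Zfas1 left out. Quantile normalization turned Gas5 to -0.063 (log2, PD minus DMSO). Without PD replicate 1 Gas5 was -0.0073, and without PD replicate 2 Snhg3 was -0.13. Without DMSO replicate 2 Gas5 was -0.14, Snhg3 -0.35, Snhg5 -0.16 and Snhg6 -0.36, and without DMSO replicate 1 they were 0.33, 0.71, 0.81 and 0.71 in that order; the cause was not tested. The hosts' median ran from -0.15, without DMSO replicate 2, to 0.71, without DMSO replicate 1. Over all genes 3 were called higher and 22 lower in PD. With 1 library left out, when the lone sample is assumed to vary like the others, 0 to 27 were higher and 0 to 20 lower. Both counts were 0 without either DMSO library (344 and 416 genes at an unadjusted p under 0.05 by limma). They were also 0 with voom on recovered reads, at 388 such genes of 6617, and without small RNA genes in the test, at 618 of 9114. With the replicate block 2 genes were higher and 17 lower, and no host passed. Same-numbered libraries deviated together at r = 0.0992 across 9741 genes and 0.203 across 8897 protein-coding genes, which are not independent replicates, and the labels do not say that the numbers pair them. The shallow PD libraries limit the precision of hosts with few reads, such as Snhg3 with 22 reads in PD replicate 2.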
